A study of Mus musculus with 6 samples.

Results

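Choroid plexus genes were taken as 9 genes known from the epithelium that lines the choroid plexus (Ttr, Kl, Folr1, Clic6, Aqp1, Otx2, Kcne2, Sostdc1 and Enpp2), together with every probe set that the array annotation gives to that gene alone. The annotation matched 8 of them, with 14 probe sets, out of 18193 genes measured. Enpp2 was not analysed here. Expression was read on Affymetrix Mouse Genome 430 2.0 arrays, on which a probe set is a group of short oligonucleotides, mostly near the 3' end of a transcript. The 6 arrays held arcuate hypothalamus dissected from mice aged 2 weeks, with 3 samples from POMCDicerKO mice, in which the gene for the microRNA-processing enzyme Dicer is deleted in cells that express Pomc, and 3 from control mice. The strain was given as mixed C57Bl/6J, FVB/N and 129 for both groups. The sources used here do not name the alleles or the Cre line behind POMCDicerKO and Ctrl, nor do they say whether a sample held a single animal or a pool.

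The choroid plexus is a fold of vascular tissue inside the brain's ventricles, covered by an epithelium that secretes cerebrospinal fluid. Its cells export transthyretin, carry folate into the fluid and move ions and water through channels on their apical face. Choroid plexus is not part of the arcuate nucleus, which borders the floor of the third ventricle and is lined there by tanycytes and ependymal cells. Values differed between single dissections, so each array is given on its own.

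Values are log2 expression after RMA (robust multi-array average), which corrects the background, gives all arrays the same distribution and summarises each probe set. Array medians lay between 6.02 and 6.05, and Pearson r between arrays, across probe sets, lay between 0.994 and 0.997. Dicer1 probe set 1460571_at read 9.18, 9.19 and 9.33 in POMCDicerKO and 9.22, 9.18 and 9.24 in control, so that the groups overlapped. They also overlapped at the other Dicer1 probe set, 1427941_at. Pomc-expressing cells are few in the tissue and the probes may lie outside the deleted part, so Dicer1 does not check the labels. Pomc, the neuropeptide precursor of the targeted cells, read 9.35, 9.71 and 9.43 in POMCDicerKO and 9.94, 10.87 and 9.76 in control at 1433800_a_at. At 1455858_x_at Pomc read 8.82, 9.40 and 8.89 in POMCDicerKO and 9.63, 10.12 and 9.35 in control, where the groups overlapped. Of 10 hypothalamic neuron markers listed, Agrp and Kiss1 were not analysed. The other 8 all had a mean of at least 6, as 11742 of all 18193 genes had. These 8 markers include Nr5a1, which is not particular to arcuate neurons, so the count does not show that the tissue was arcuate alone. Controls 1 and 2 stood apart in meningeal transcripts, as given below. Across all 45037 probe sets limma called 0 at a Benjamini-Hochberg adjusted p under 0.05 (0% of those tested), with 1098 at an unadjusted p under 0.05 (2.44%).

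Ttr encodes transthyretin, the carrier of thyroxine and of the retinol-binding protein, and is the best-known secreted product of the choroid plexus. It was the choroid plexus gene that differed most between arrays, and it did so within the groups. Probe set 1454608_x_at read 10.22, 11.41 and 7.20 in POMCDicerKO replicates 1, 2 and 3, against 10.99, 9.10 and 9.87 in controls 1, 2 and 3. The highest and the lowest of the 6 arrays were both POMCDicerKO arrays, and all 3 controls lay between them. POMCDicerKO 2 was 18.6-fold above POMCDicerKO 3. Among controls, control 1 was 3.71-fold above control 2.

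The other Ttr probe sets gave the same order of arrays. Probe set 1459737_s_at read 9.50, 10.70 and 6.60 in POMCDicerKO and 10.31, 8.71 and 9.29 in control. Probe set 1455913_x_at read 9.06, 10.21 and 5.70 in POMCDicerKO and 9.84, 7.92 and 8.71 in control. Probe set 1451580_a_at read 8.65, 9.75 and 6.79 in POMCDicerKO and 9.25, 8.19 and 8.55 in control. In each case POMCDicerKO 2 was highest, control 1 next and POMCDicerKO 3 lowest. Pearson r between pairs of the 4 probe sets over the 6 arrays lay between 0.992 and 0.999. They were read on the same arrays and target the same transcript, so their agreement describes the measurement and not further animals.

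**Figure D1:**
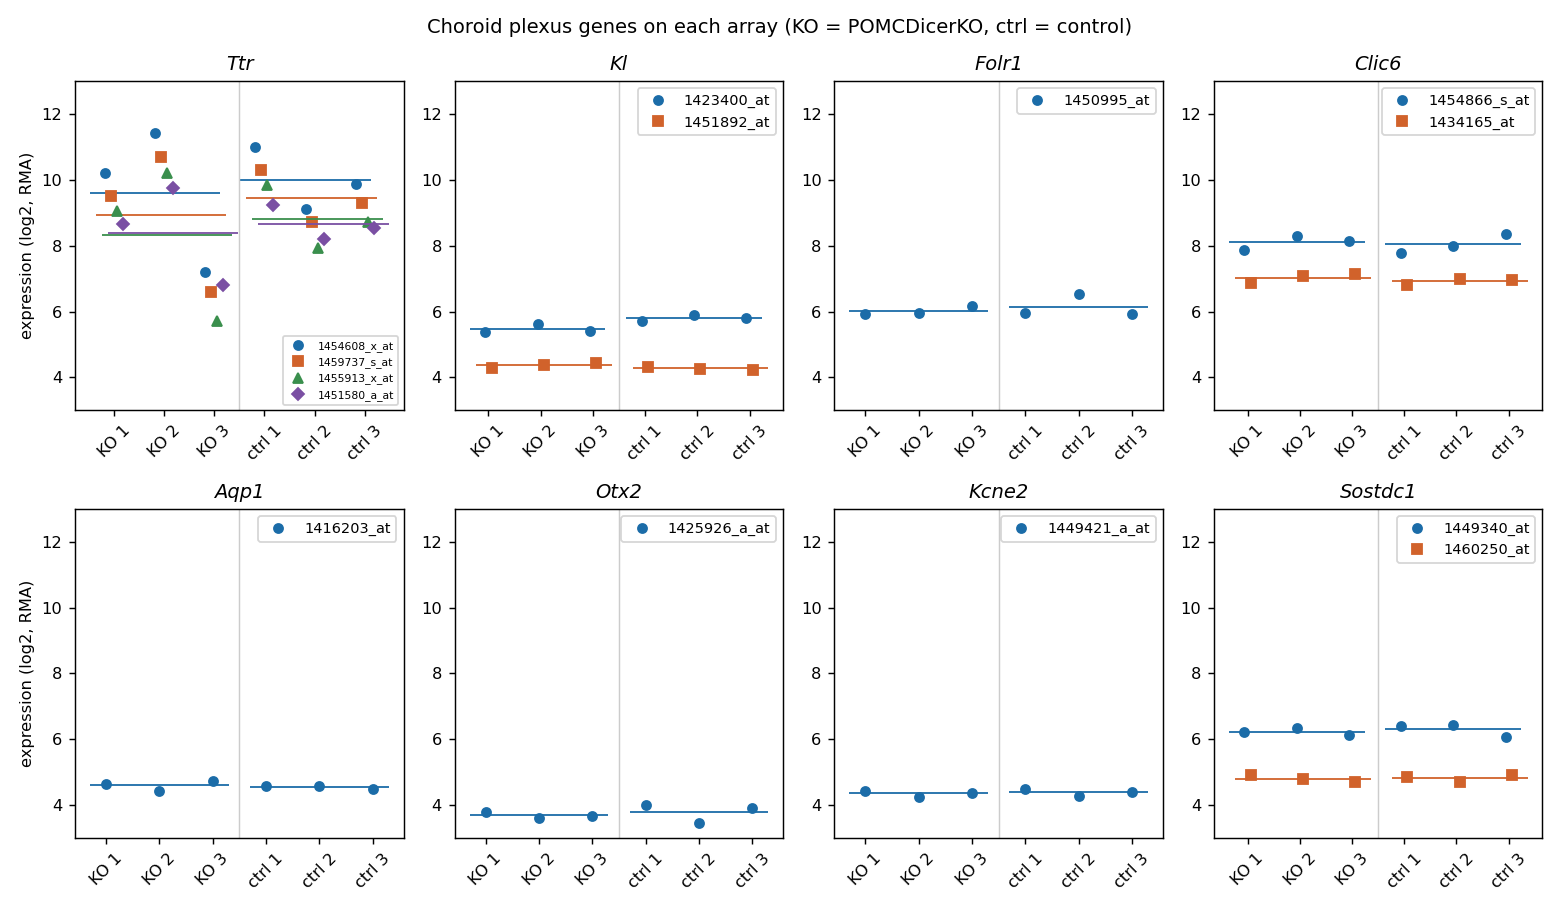
Log2 expression of the 8 choroid plexus genes on each of the 3 POMCDicerKO arrays (KO, left) and 3 control arrays (ctrl, right). Points are probe sets, horizontal lines are group means, and all panels share the axis. Ttr spans 7.20 to 11.41 at 1454608_x_at, while the main probe sets of the other 7 genes span at most 0.61.

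The group means of Ttr did not differ beyond this spread. Probe set 1454608_x_at averaged 9.61 ± 2.17 in POMCDicerKO and 9.99 ± 0.95 in control (SD, n = 3 each), a log2 difference of -0.38 with a standard error of 0.99 and a 95% interval from -2.68 to 1.92. The adjusted p of limma was 1 and the two-sided exact permutation p was 0.9, where 3 against 3 arrays cannot give less than 0.1. The interval is wide enough to hold a 3-fold change in either direction. The sign rested on single arrays, at 0.82 without POMCDicerKO 3 and 0.12 without control 1. The other 3 probe sets gave -0.50, -0.50 and -0.27, each with an exact permutation p of 0.9, and 0.67, 0.81 and 0.54 without POMCDicerKO 3.

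The spread of Ttr stood out from that of the other genes on the array. Its SD within groups was 1.68 log2 units at 1454608_x_at, where the median over all probe sets was 0.10, and 0 of the 18193 genes had a larger value when each was represented by its brightest probe set. Only Cga and Ptgds had a wider range over the 6 arrays (4.79 and 4.69, against 4.21 for Ttr). Cga is the hormone subunit shared by pituitary glycoproteins. Ptgds is a prostaglandin D synthase, counted here among the meningeal and fibroblast markers but not made by the meninges alone. Among the 3 POMCDicerKO arrays no probe set had a wider range than Ttr 1455913_x_at, at 4.51. Whether the spread differed between the groups was not tested.

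**Figure D2:**
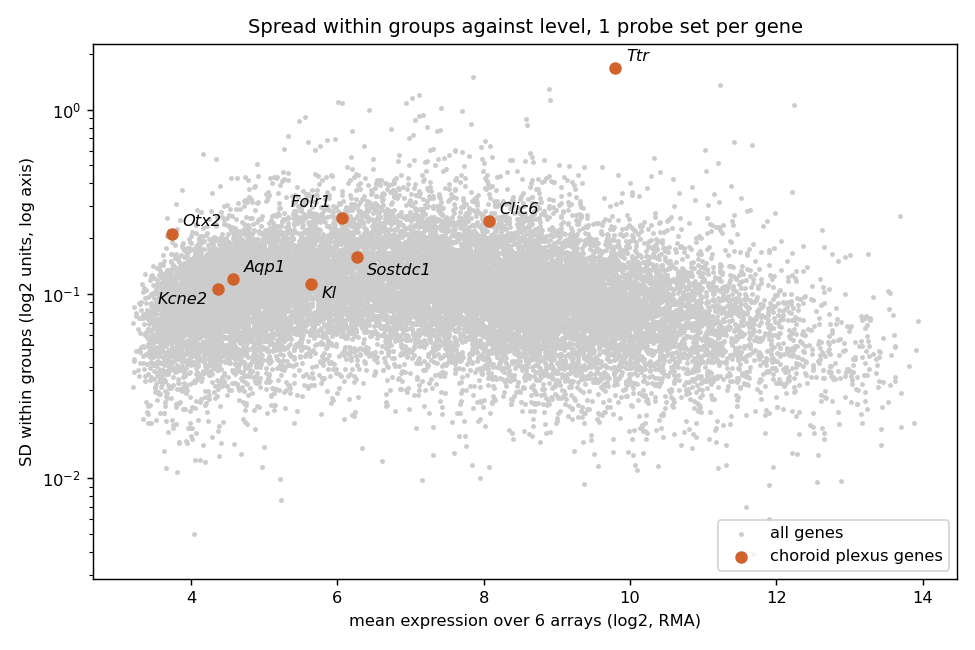
SD within groups (log axis, log2 units) against mean log2 expression for all 18193 genes (grey) and the 8 choroid plexus genes (orange), with 1 probe set per gene. Ttr lies at the top with an SD of 1.68, and the other 7 genes lie between 0.11 and 0.26.

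Kl encodes klotho, the membrane co-receptor through which fibroblast growth factor receptors bind FGF23. Probe set 1423400_at read 5.37, 5.62 and 5.40 in POMCDicerKO and 5.72, 5.90 and 5.80 in control. Every POMCDicerKO array lay below every control array, and Kl was the only choroid plexus gene whose groups did not overlap. The log2 difference was -0.34 with a standard error of 0.088 and a 95% interval from -0.55 to -0.14, which did not pass limma's threshold (adjusted p = 1, unadjusted p = 0.0052, exact permutation p = 0.1). It ran from -0.42 to -0.29 with single arrays left out, and was -0.12 (unadjusted p = 0.088) when both Kl probe sets were averaged. The other Kl probe set, 1451892_at, had the other sign, at 4.29, 4.39 and 4.42 in POMCDicerKO and 4.32, 4.26 and 4.23 in control, a difference of 0.098 (exact permutation p = 0.2). It lay below 4.60, the lower quartile of the probe sets' means, where signal over background is small and differences are compressed. Probe set 1423400_at averaged 5.63, itself below the median level of 6.02. Which Kl probe set reads the transcript better was not tested. Of the 14 choroid plexus probe sets, 1 had groups that did not overlap, where 6.36% of all probe sets had. The same probe set had an unadjusted p under 0.05 by limma, as 2.44% of all probe sets had. No result about the choroid plexus genes is read from a count of 1.

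Folr1 encodes the folate receptor alpha, which takes folate into the epithelium on its way to the cerebrospinal fluid. Probe set 1450995_at read 5.92, 5.94 and 6.16 in POMCDicerKO and 5.96, 6.52 and 5.92 in control. Control 2 alone was high, and the other 5 arrays lay at 6.16 or below. The log2 difference of -0.13 (95% interval -0.50 to 0.25, exact permutation p = 0.7) turned to 0.069 without control 2.

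Aqp1 is the water channel of the apical face of the epithelium, and Kcne2 is a subunit of potassium channels that sits beside it. Aqp1 read 4.65, 4.42 and 4.73 in POMCDicerKO and 4.58, 4.58 and 4.48 in control, with overlapping groups. Its log2 difference was 0.054 (95% interval -0.16 to 0.27). Kcne2 read 4.43, 4.25 and 4.37 in POMCDicerKO and 4.50, 4.26 and 4.41 in control, with groups that also overlapped. Its log2 difference was -0.038 (95% interval -0.23 to 0.16). Both probe sets lay below the lower quartile, so that a change in these transcripts may not be detectable here. Aqp1 is also made by red blood cells, and the erythroid markers stood highest on control 2, where Aqp1 read 4.58 as on control 1. The part of blood in the Aqp1 values was not tested.

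Clic6 belongs to the chloride intracellular channel family. Probe set 1454866_s_at read 7.87, 8.28 and 8.16 in POMCDicerKO and 7.79, 7.98 and 8.34 in control. Probe set 1434165_at read 6.86, 7.06 and 7.13 in POMCDicerKO and 6.80, 7.0 and 6.95 in control. The groups overlapped at both, with log2 differences of 0.066 (95% interval -0.30 to 0.43) and 0.10 (95% interval -0.11 to 0.32). Without control 1 the first was at -0.058. POMCDicerKO 3, lowest for Ttr by far, was among the upper 3 arrays for both Clic6 probe sets.

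Sostdc1 encodes a secreted antagonist of bone morphogenetic protein and Wnt signals. Probe set 1449340_at read 6.21, 6.33 and 6.14 in POMCDicerKO and 6.40, 6.43 and 6.06 in control, and the arrays of both groups were mixed in order. The log2 difference was -0.068 (95% interval -0.32 to 0.19). Probe set 1460250_at read 4.91, 4.78 and 4.71 in POMCDicerKO and 4.85, 4.70 and 4.92 in control, a difference of -0.024 (95% interval -0.22 to 0.17) that turned to 0.022 without POMCDicerKO 3.

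Otx2 encodes the homeodomain transcription factor that sets the fate of the choroid plexus epithelium. Probe set 1425926_a_at read 3.78, 3.61 and 3.67 in POMCDicerKO and 4.01, 3.47 and 3.90 in control, close to the lowest value on the arrays of 3.05. The groups overlapped, with a log2 difference of -0.11 (95% interval -0.43 to 0.21) that was 0.0021 without control 1. OTX proteins bind the motif TAATCC, and the promoters of the members were searched for it on both strands (its reverse complement is GGATTA) in windows from 250 bases before to 50 bases after each RefSeq start. Ttr, Folr1, Clic6 and Sostdc1 were not searched. RefSeq windows of build GRCm38.p6 were at hand for 4 of the genes (Kl, Aqp1, Otx2 and Kcne2), 8 windows in all. The motif stood in 1 of them, at a start of Otx2 itself (chr14:48665060-48665359, minus strand), and in 7.06% of the 32851 windows of all genes. The window is shown because, of the 8 searched, it is the one that holds the motif, with the motif in capitals, at bases 40 to 45.
Otx2: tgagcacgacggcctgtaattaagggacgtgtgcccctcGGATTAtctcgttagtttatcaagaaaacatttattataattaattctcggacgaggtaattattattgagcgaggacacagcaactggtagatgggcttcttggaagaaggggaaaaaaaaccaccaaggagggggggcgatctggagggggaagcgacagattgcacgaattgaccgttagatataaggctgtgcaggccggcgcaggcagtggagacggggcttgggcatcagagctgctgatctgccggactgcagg
The match describes letters only, and nothing about the factor is drawn from it or from the windows without it.

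Taken over genes, by the probe set with the highest mean, 6 of the 8 choroid plexus genes had a log2 difference below 0 and 2 above it, with a median of -0.088. Over all 18193 genes, 55.1% were below 0 and the median was -0.01. None of the 14 probe sets passed limma's adjusted threshold (0), and of the 8 genes 1 had an unadjusted p under 0.05, where 2.41% of all genes had. Apart from Ttr, the differences of the 10 probe sets lay between -0.34 and 0.10.

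**Figure D3:**
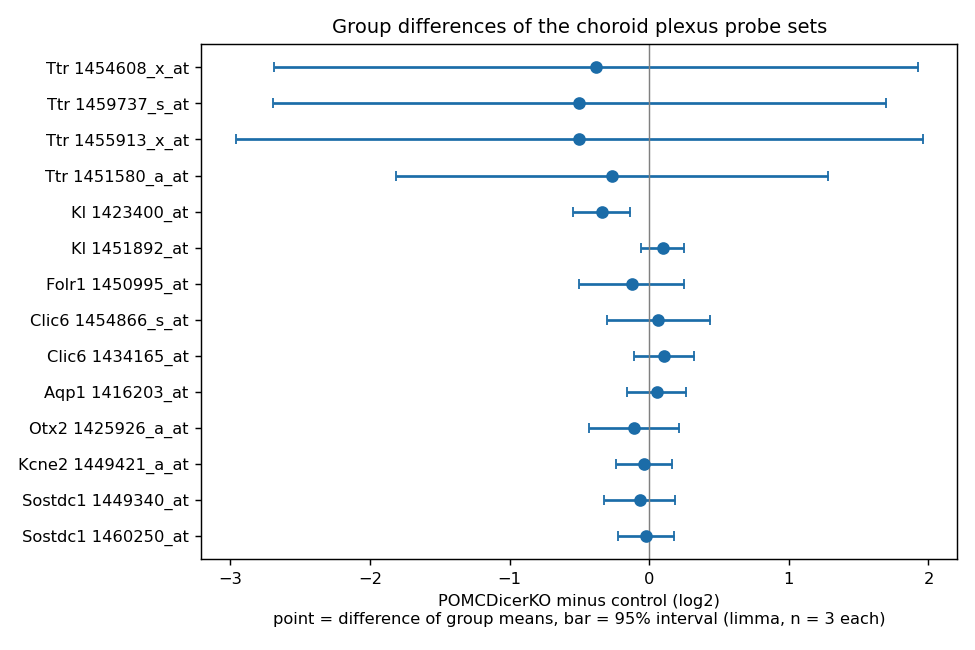
Log2 difference (POMCDicerKO minus control) of each of the 14 choroid plexus probe sets, with its 95% interval from limma (n = 3 arrays each). The 4 Ttr intervals are the widest, and Kl 1423400_at is the only probe set whose interval does not include 0, before any adjustment for the number tested.

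The other choroid plexus genes did not follow Ttr across the arrays. Pearson r with Ttr 1454608_x_at was 0.40 for Sostdc1, 0.34 for Otx2 and 0.25 for Kl, by main probe set over the 6 arrays. It was 0.074 for Kcne2, -0.13 for Clic6, -0.53 for Folr1 and -0.73 for Aqp1. The other probe sets of Sostdc1, Kl and Clic6 gave 0.52, -0.26 and -0.57. The points share 6 arrays, and for dim probe sets the values are mostly background. Where Ttr had a range of 4.21, the main probe sets of the other 7 genes had ranges between 0.25 and 0.61. Of the 8 members only Ttr had a range of at least 1. By main probe set, Folr1, Kl and Sostdc1 were highest on control 2, Kcne2 and Otx2 on control 1, and Ttr, Aqp1 and Clic6 each on another array. Of these genes Aqp1, Otx2 and Kcne2 lay below the lower quartile of probe set means. The group is named here for what its genes are known from.

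A further list of choroid plexus epithelium genes held no gene that spread as Ttr did. Of 27 measured, 19 were below 0 and 8 above it (median -0.09), where 55.1% of all genes were below 0. Without controls 1 and 2 the count below 0 was 14, and relative to the control mean the list stood at -0.09 on control 3, as it did on POMCDicerKO 1. In this list 0 passed the adjusted threshold, 3 had an unadjusted p under 0.05, all lower (Perp, Calml4 and Kcnj13), against 2.41% of all genes, and 3 had groups that did not overlap (Perp and Slc16a8 lower, Slc4a5 higher), against 6.44% of all genes. None (0) had a range of at least 1 over the arrays, as 1.08% of all genes had. Their mean level lay between 5.94 and 5.95 on the POMCDicerKO arrays and between 5.95 and 6.12 on the control arrays. The list stood at 5.94 on POMCDicerKO 2 and 5.95 on POMCDicerKO 3, the arrays at either end of the range of Ttr. Genes that move in opposite ways cancel in such a mean. Of the 27, 13 had an r with Ttr above 0, and r ran from -0.74 to 0.87. Of the 27 genes, 12 lay below the median level of all probe sets, where background weighs more. The part of such dim genes, and of this cancelling, in the narrow spans of the list mean was not tested. Control 2 had the highest mean, and 12 of the 27 genes (44.4%) were highest on it, Kcnj13, Calml4, Cldn2 and Msx1 among them, where 25.4% of all genes were. This was looked at after the values were seen and was not tested. Of the 8 ependymal markers 7 were also highest on control 2, and their part in it was not tested.

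Perp, a membrane protein of cell junctions, read 6.74, 6.85 and 7.04 in POMCDicerKO and 7.37, 7.14 and 7.11 in control. Its groups did not overlap, with a log2 difference of -0.33 (standard error 0.10, adjusted p = 1 by limma). Calml4, a calmodulin-like protein, read 7.35, 7.61 and 7.36 in POMCDicerKO and 7.53, 8.05 and 7.71 in control, a log2 difference of -0.32. Its groups overlapped, and control 2 was highest. Slc13a4, a sulphate transporter, read 6.21, 6.24 and 6.41 in POMCDicerKO and 7.18, 7.16 and 6.20 in control, a log2 difference of -0.56. Controls 1 and 2 were high and control 3 lay with the POMCDicerKO arrays, the same split as for the meningeal markers. Slc13a4 is also made in the meninges, and the part of the meninges in its difference was not tested. Kcnj13, the apical potassium channel Kir7.1, named after its values were seen, read 5.21, 4.91 and 5.14 in POMCDicerKO and 5.40, 5.83 and 5.19 in control, a log2 difference of -0.39. Control 2 was highest for Kcnj13, as it was for Folr1. The gene of the list with the highest r with Ttr was Ecrg4, a secreted peptide precursor, named after its values were seen (r = 0.87). It read 6.27, 6.23 and 5.63 in POMCDicerKO and 6.42, 6.21 and 6.05 in control, lowest on POMCDicerKO 3 like Ttr, but over a range of 0.79.

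Genes that act with the members were listed as well, and 19 were measured, 12 below 0 and 7 above it, with a median of -0.064, where 55.1% of all genes were below 0. In this list 0 passed the adjusted threshold, and 3 had an unadjusted p under 0.05, 2 lower (Rbp4 and Lmx1b) and 1 higher (Lrp6), against 2.41% of all genes. The groups did not overlap at 3, all lower (Rbp4, Lpar4 and Lmx1b), against 6.44% of all genes. Rbp4, the retinol carrier that transthyretin holds in plasma, read 6.96, 7.34 and 7.29 in POMCDicerKO and 7.59, 7.63 and 7.41 in control, a log2 difference of -0.35 (standard error 0.11). Its groups did not overlap, though its pattern was unlike that of Ttr (r = 0.039). Lrp6, a Wnt co-receptor that SOSTDC1 binds, read 8.34, 8.53 and 8.11 in POMCDicerKO and 7.89, 8.15 and 7.92 in control, a log2 difference of 0.34. The groups overlapped only where POMCDicerKO 3 lay below control 2. Lpar1, a receptor of lysophosphatidic acid that oligodendrocytes express, read 9.05, 8.46 and 8.65 in POMCDicerKO and 8.45, 8.48 and 8.32 in control, a log2 difference of 0.31. It was highest on POMCDicerKO 1, as were the oligodendrocyte markers.

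Neighbouring tissues were compared with Ttr array by array, as mean log2 level of each marker list relative to the control mean. Ttr itself stood at 0.23, 1.42 and -2.79 on POMCDicerKO 1, 2 and 3, and at 1.0, -0.89 and -0.12 on controls 1, 2 and 3. The 8 ependymal markers stood at -0.32, 0.09 and -0.08 in POMCDicerKO and at -0.18, 0.28 and -0.10 in control, highest on the control that was lowest for Ttr. Of these markers 7 were highest on control 2, but Hdc was lowest there (9.13) and highest on control 3 (10.27). The list mean thus joins unlike patterns. The 14 meningeal and fibroblast markers stood at -0.62, -0.92 and -1.22 in POMCDicerKO and at 0.43, 0.42 and -0.85 in control, so that they divided controls 1 and 2 from the other 4 arrays. Ttr did not divide the arrays in that way, since it was high on control 1 and low on control 2. Both Ttr and the meningeal list were lowest on POMCDicerKO 3. Of the 14 meningeal markers, 12 had an r with Ttr above 0 (highest 0.52), where 3 of the 8 ependymal markers had.

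The tanycyte markers, 7 measured, stood at -0.53, 0.13 and -0.27 in POMCDicerKO and at -0.17, 0.21 and -0.04 in control, lowest on POMCDicerKO 1. The 6 pituitary markers stood at 0.39, -0.86 and -0.03 in POMCDicerKO and at 0.06, 0.18 and -0.24 in control, lowest on the array that was highest for Ttr. Only 2 of the 6 had a mean of at least 6, and their log2 differences were opposite, at -2.37 for Cga and 1.64 for Gh. The list mean thus joins unlike patterns and is not a single pituitary signal. The 6 erythroid markers stood at -0.43, -0.45 and -0.31 in POMCDicerKO and at -0.39, 0.33 and 0.06 in control. Only 1 of the 6, Alas2, had a mean of at least 6. The median of the erythroid list ran only from -0.26 on POMCDicerKO 2 to 0.09 on control 2. The 11 mature oligodendrocyte markers stood at 0.78, 0.13 and 0.39 in POMCDicerKO and at 0.12, -0.13 and 0.0039 in control, with POMCDicerKO 1 highest. The 8 endothelial markers stayed between -0.023 and 0.11 in POMCDicerKO and between -0.081 and 0.049 in control. Each list had its own order of arrays by its mean, and none put POMCDicerKO 3 lowest and POMCDicerKO 2 highest as Ttr did. Dio2, of the tanycyte list, did so on its own (r = 0.93 with Ttr), where 4 of the 7 tanycyte markers had an r above 0. The part of any of these tissues in the level of Ttr was not tested. In such bulk samples fewer cells of a type and less RNA per cell cannot be told apart.

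**Figure D4:**
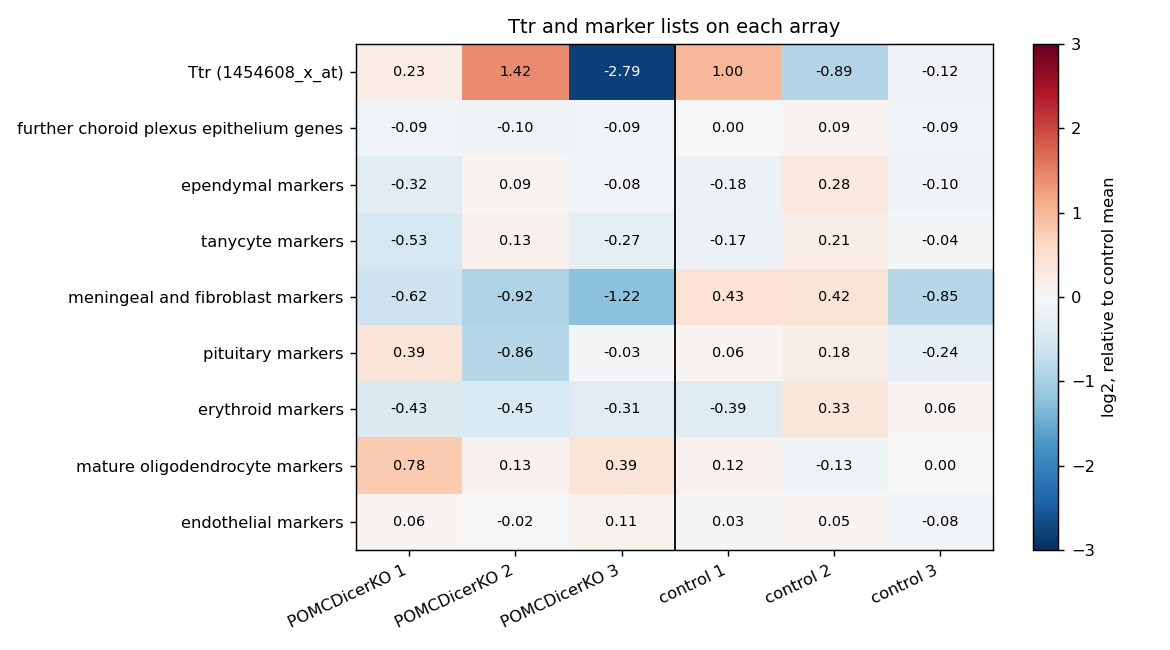
Ttr (1454608_x_at) and the mean of each marker list on each array, as log2 relative to the control mean, with POMCDicerKO arrays left and control arrays right. Ttr runs from -2.79 on POMCDicerKO 3 to 1.42 on POMCDicerKO 2, and the further choroid plexus genes stay between -0.10 and 0.09.

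Among 1328 other genes with a mean of at least 6 and a range of at least 0.5, the 8 whose pattern over the 6 arrays was most like that of Ttr were Tiparp, Ybx3, Klf2, Glrx2, Taf12, Rbm12b2, Mrps6 and Klf4, with Pearson r from 0.946 to 0.991. Tiparp, an ADP-ribosyltransferase, read 9.0, 9.17 and 8.41 in POMCDicerKO and 9.05, 8.77 and 8.96 in control. Klf2, a zinc finger transcription factor, read 7.19, 7.25 and 6.66 in POMCDicerKO and 7.20, 6.91 and 6.94 in control. All 8 were lowest on POMCDicerKO 3, over ranges between 0.54 and 1.01. The members were not candidates, and most of the further choroid plexus genes fell short of the required range (median 0.35). That none of them was found here was therefore largely fixed in advance. The genes most like the mean of the 8 members, each centred on its own mean, shared Ybx3, Tiparp, Mrps6 and Taf12 with the genes most like Ttr. They added Speg, Dio2, Ccn1 and Cckar, with r from 0.936 to 0.977 for all of them. Ttr sets most of the members' mean. Dio2, the deiodinase of tanycytes that makes active thyroid hormone, read 7.74, 7.99 and 6.93 in POMCDicerKO and 7.95, 7.79 and 7.67 in control. With 6 arrays and this many candidates a high r is a description of these arrays only.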

How the data were processed

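Values were the log2 expression values that the authors deposited, 1 per probe set and array, made with RMA and the affy package per the submitters' processing notes. The sources used here give no versions and no genome build. No sample column was left unused (0). After 64 control probe sets were left out, 45037 were tested, of which 34945 had 1 gene symbol, 932 had several and 9160 were unnamed here. Current symbols were looked up by Entrez number in RefSeq's gene list for GRCm38.p6 (34741 found). For 18193 genes, the brightest probe set on average stood for the gene.

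Groups and replicate numbers came from the sample titles. POMCDicerKO was compared with control in limma 3.58.1 (R 4.3.3), adjusting p by Benjamini and Hochberg's method across the whole array, with 0.05 as the threshold, and with two-sided exact permutation tests for single probe sets. Standard errors, 95% intervals and unadjusted p values are limma's. The labels say that samples were independent and name no batch, and the number of arrays limits the precision. Members and lists were chosen with earlier results of these data known. Named were all members, up to 3 genes per list with the smallest p among those with a mean of at least 6, and the 8 genes most like Ttr or like the members' mean. Marker lists of neighbouring cell types are described by their mean on each array. Alternatives covered scaling, filters, the variance prior, array weights, a replicate block, the probe set of a gene and leaving out each array. Leaving out controls 1 and 2 together, all alternatives for the range of Ttr and those for the further choroid plexus list were added after seeing the data.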

Additional observations from a re-analysis of the deposited data

How the results depend on the processing

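Among the settings that kept all 6 arrays, array weights alone turned the sign of any choroid plexus probe set, while leaving out arrays turned more of them. None passed limma's adjusted threshold under any alternative run (0). Array weights turned the 4 Ttr probe sets to 0.20 (1454608_x_at), 0.073 (1459737_s_at), 0.13 (1455913_x_at) and 0.14 (1451580_a_at). With control 3 as the only control, which limma then assumes to vary like the POMCDicerKO arrays, Folr1 was at 0.091, Clic6 1454866_s_at at -0.24 and Sostdc1 1449340_at at 0.16.

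With single arrays left out, Ttr ran from -1.28 to 0.82 at 1454608_x_at, -1.38 to 0.67 at 1459737_s_at, -1.44 to 0.81 at 1455913_x_at and -0.94 to 0.54 at 1451580_a_at. Folr1 ran from -0.24 to 0.069, Clic6 1454866_s_at from -0.058 to 0.22, Aqp1 from -0.011 to 0.14, Otx2 from -0.27 to 0.0021, Kcne2 from -0.10 to 0.016 and Sostdc1 1460250_at from -0.083 to 0.024. The members' median ran from -0.12 to -0.0074, the number of members below 0 from 4 to 6, the further choroid plexus genes below 0 from 15 to 21 and the range of Ttr from 2.31 (without POMCDicerKO 3) to 4.21. Over all probe sets, 0 to 2 passed the adjusted threshold and 874 to 2075 the unadjusted 0.05.

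Keeping only probe sets above the median, or only those with a mean of 6 or more, left 4 members, 3 of them below 0, and 419 and 427 probe sets under an unadjusted 0.05, or 1.86% and 1.88% of those tested against 2.44% without a filter. The filter at 6 left 15 further choroid plexus genes, 12 below 0, and leaving out controls 1 and 2 gave 14 of 27. A robust, trended prior brought 1 probe set past the threshold, as did leaving out controls 1 and 2, where 1868 had an unadjusted p under 0.05. The cause was not tested. With the replicate number as a block, 1396 had an unadjusted p under 0.05 and 0 passed, and Kl was at -0.34, against -0.12 for the mean of its probe sets. Deviations of same-numbered arrays from their group means correlated at 0.13, 0.079 and 0.12, each array best with its own number. The deviations sum to 0 within each group, so these values are not independent, and no pairing is read from them.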
